A study of Mus musculus with 6 samples.

Results

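The mitochondrially encoded genes are the 37 genes of mouse mitochondrial DNA, chosen as every row of the expression table whose symbol begins with mt-. They comprised 13 protein genes, 2 ribosomal RNAs (rRNAs) and 22 transfer RNAs (tRNAs) among 28584 symbols, and all 37 passed the filter on low values and were tested. Levels are given as TPM, a length-scaled share of the library in which values of all genes add up to a fixed total; TPM divide reads by gene length and by the library's total, so that genes can be compared within a library. Mouse embryonic stem cells (ESCs) of 1 line, derived from a C57BL/6 × 129S6 blastocyst, had been kept on mitomycin C-inactivated mouse embryonic fibroblast (MEF) feeder cells and were then grown for 10 passages (P10) in a basic medium with 20% fetal bovine serum. The medium held no cytokine (-LIF-ESCs), 1000 U/mL leukemia inhibitory factor (LIF-ESCs) or oncostatin M in place of LIF (OSM-ESCs), and each group had 2 libraries of poly-T selected RNA, which the study calls biological replicates. LIF and OSM are cytokines of the interleukin-6 family that signal through gp130 to Stat3, and the comparisons ask how cells kept in either differ from cells without a cytokine and from each other. All groups came from a single line and shared the serum and the feeder history, and no source says that replicates were separate cultures, so p-values may measure technical spread only.

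Mitochondrial DNA is copied and transcribed inside the organelle by its own polymerase, Polrmt, with the factors Tfam and Tfb2m. Each strand is transcribed as a long precursor, and tRNAs lying between the other genes mark where the precursor is cut into separate RNAs. The 13 proteins are core subunits of respiratory complex I (the Nd genes), complex III (Cytb), complex IV (Co1 to Co3) and complex V, the ATP synthase (Atp6 and Atp8), while complex II is encoded wholly in the nucleus. Of the 13 protein genes 12 were transcribed from the plus strand of the annotation, with both rRNAs and 14 tRNAs, and mt-Nd6 and 8 tRNAs from the other strand. mt-Nd6 RNA is known to lack a long poly(A) tail, so poly-T selection can capture it to another extent than the others. How far this selection captured the cut rRNAs and tRNAs was not tested. Reads on them may come from longer RNAs, so their values need not be levels of the separate RNAs. The library kit named in the labels is not a strand-marking version. Reads of mt-Nd6 and of the 8 tRNAs on its strand therefore cannot be told apart from reads of opposite-strand RNA at the same places.

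The mitochondrial DNA shared sequence with annotated nuclear genes, and among annotated transcripts 7 protein genes had a match at 99% identity or more. Weaker matches included Gm13340 to the whole of mt-Co1 (97.605%), Gm13339 to part of mt-Nd2 (96.667%) and Gm4076 to part of mt-Nd5 (95.178%). Cep295 matched mt-Tl1 and mt-Tn, at 93.548% and 91.549%. In the GENCODE M21 transcripts (build GRCm38, the same as mm10), 7 gene models on chromosome 1, minus strand, matched mt-Co1, mt-Co2, mt-Atp6, mt-Co3, mt-Nd3, mt-Nd4l and mt-Nd4 at 99% identity or more over a stretch of 4663 bases (chr1:24611535-24616197). Gm28661 matched 681 of the 684 bases of mt-Co2 with 0 mismatches, Gm10925 678 of the 681 bases of mt-Atp6, Gm28437 783 of the 784 bases of mt-Co3 and Gm10222 294 of the 297 bases of mt-Nd4l, each with 0 mismatches. Gm28439 matched 876 of the 1378 bases of mt-Nd4 with 0 mismatches. Gm29216 matched 483 of the 1545 bases of mt-Co1, and Gm28438 345 of the 348 bases of mt-Nd3, each with 1 mismatch. The spacing was equal for all neighbouring pairs but mt-Nd3 and mt-Nd4l, which lay 73 bases apart in mitochondrial DNA and 74 on chromosome 1. For example, 233 bases lay between the matched parts of mt-Co2 and mt-Atp6 and also between their copies. In mitochondrial DNA that gap holds mt-Tk and all of mt-Atp8 but its last 43 bases, which lie in mt-Atp6. At other gaps lie mt-Ts1, mt-Td, mt-Tg and mt-Tr. The search covered annotated transcripts only, so sequence in the gaps on chromosome 1 was not compared. Whether these tRNAs have near-identical copies there was not tested, so their values are uncertain. The 60 bases around both mismatches are shown to give the only positions at which these pairs differed in the aligned part, with the differing base in capitals, counted from 1 at the 5′ end of the mitochondrial gene. The mismatches are A1066T for mt-Co1 against Gm29216 and T3C for mt-Nd3 against Gm28438.
mt-Co1: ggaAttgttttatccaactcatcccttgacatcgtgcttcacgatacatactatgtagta
Gm29216: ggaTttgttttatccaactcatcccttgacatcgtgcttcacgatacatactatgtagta
mt-Nd3: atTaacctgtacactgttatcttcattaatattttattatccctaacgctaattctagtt
Gm28438: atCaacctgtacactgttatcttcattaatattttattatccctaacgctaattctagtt

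The whole of mt-Atp8 (chrM:7766-7969, plus strand) is shown because its last 43 bases, in capitals, are also the first 43 of mt-Atp6 (chrM:7927-8607), so that a read there matches both genes.
mt-Atp8: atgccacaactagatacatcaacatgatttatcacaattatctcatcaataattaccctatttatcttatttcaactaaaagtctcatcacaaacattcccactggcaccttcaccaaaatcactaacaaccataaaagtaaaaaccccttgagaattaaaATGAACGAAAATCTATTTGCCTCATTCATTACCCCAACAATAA

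The tRNAs on which the results below turn are shown with their anticodon in capitals, written 5′ to 3′ on the tRNA's own strand. Their shortness matters for what was measured: the 22 tRNAs were 59 to 75 bases long, shorter than the fragments of the libraries, so a read on one extends into its neighbours. They form 3 sets by position. The first holds 5 tRNAs between mt-Nd2 and mt-Co1 (for tryptophan, alanine, asparagine, cysteine and tyrosine, from chrM:4950 to 5326), of which the last 4 are on the minus strand. The second holds the 3 tRNAs between mt-Nd4 and mt-Nd5 (for histidine, serine and leucine, from chrM:11546 to 11741, plus strand). The third is mt-Te for glutamate (chrM:14071-14139, minus strand), which directly precedes mt-Nd6 in the light-strand precursor. All sequences are from the GENCODE M21 transcripts.
mt-Tw: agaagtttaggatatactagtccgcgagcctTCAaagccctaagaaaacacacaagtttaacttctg
mt-Ta: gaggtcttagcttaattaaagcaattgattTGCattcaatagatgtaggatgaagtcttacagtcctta
mt-Tn: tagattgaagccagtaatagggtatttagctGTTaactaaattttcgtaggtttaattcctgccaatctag
mt-Tc: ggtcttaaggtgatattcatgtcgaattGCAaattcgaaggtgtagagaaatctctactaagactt
mt-Ty: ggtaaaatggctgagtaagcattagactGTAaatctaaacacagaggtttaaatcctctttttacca
mt-Th: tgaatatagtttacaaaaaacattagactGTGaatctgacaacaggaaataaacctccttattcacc
mt-Ts2: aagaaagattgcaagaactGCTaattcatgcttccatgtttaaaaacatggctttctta
mt-Tl2: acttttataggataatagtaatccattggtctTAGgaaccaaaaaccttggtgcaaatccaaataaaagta
mt-Te: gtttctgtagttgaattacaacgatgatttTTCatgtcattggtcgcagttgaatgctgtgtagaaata

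Across the whole table, reads recovered from TPM and exon length totalled 20712939 to 28994418 per library, of which the 37 genes held 303954 to 375941. The summed TPM of 10 ESC markers was 5500 to 5520 in -LIF-ESCs and 6960 to 7530 in the cytokine groups, and no marker was at 0 in any library. Of these 10, 8 were higher and 1 lower in each cytokine group, and the 1 was Nanog, at -0.58 and -0.73 on the log2 scale. Calls on markers are at an adjusted p under 0.05 in the limma fit described below. Of all genes tested there, 42.2% were higher and 25.9% lower in LIF-ESCs, then 42.9% and 25.4% in OSM-ESCs. The 15 fibroblast markers of the feeder layer summed to 49.5 and 54.3 TPM without a cytokine, 414 and 415 with LIF and 577 and 586 with OSM, with 15 of 15 higher in both cytokine groups and none at 0. The 8 markers of simple epithelium summed to 3480 and 3520 TPM in -LIF-ESCs and 654 to 700 in the others, with 8 of 8 lower. These cells also carry mitochondrial RNA, and the part of either list in the results below was not tested. In these bulk samples fewer cells of a type and less RNA per cell cannot be told apart.

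The total share of TPM held by the 37 genes was close in all groups. It was 3.85% and 3.935% in the -LIF-ESC libraries, 3.901% and 3.842% in LIF-ESCs, then 3.806% and 3.459% in OSM-ESCs. The means were 3.892% ± 0.0604 without a cytokine, 3.872% ± 0.0419 with LIF and 3.633% ± 0.245 with OSM (SD, n = 2). The -LIF-ESC and LIF-ESC libraries overlapped. Both OSM-ESC libraries were below all others, but replicate 1 by less than the difference between the OSM-ESC replicates. Gm23935, a nuclear gene model, held 0.5865% of TPM in OSM-ESCs replicate 1 and 1.792% to 1.933% in the other libraries. Left out of the total, a choice made after seeing the data, it gave mean shares of 3.97% without a cytokine, 3.94% with LIF and 3.68% with OSM. As a share of recovered reads, which does not weight short genes up, the values were 1.506% and 1.544% without a cytokine, 1.417% and 1.39% with LIF and 1.32% and 1.238% with OSM. By that measure no group overlapped another, with -LIF-ESCs highest and OSM-ESCs lowest. The 95% Wilson interval of the share in -LIF-ESCs replicate 2, the shallowest library, was 1.538% to 1.549%, and such intervals cover counting error only. With 2 libraries a group, an exact permutation test cannot give a two-sided p below 0.333, and none is given for the shares.

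**Figure D1:**
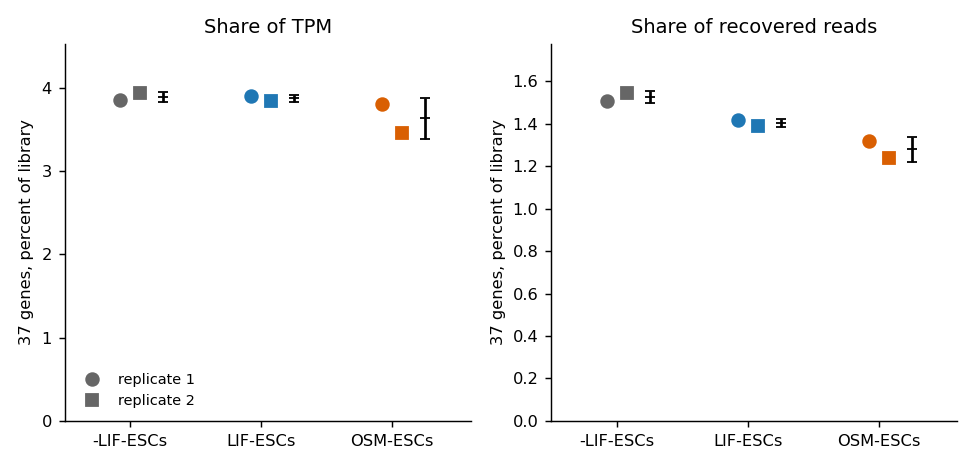
Share of the 37 mitochondrially encoded genes in each library, as percent of TPM (left) and percent of recovered reads (right), with circles and squares for replicates 1 and 2 and bars for the mean ± SD of each group (n = 2). The TPM shares lie between 3.459% and 3.935%, and the read shares fall into separate ranges from 1.544% in -LIF-ESCs to 1.238% in OSM-ESCs.

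Within the total of TPM, which unlike the share of reads was close between groups, the makeup by complex differed. Complex I held 19.69% and 20.41% of the members' TPM without a cytokine, 28.06% and 27.8% with LIF and 28.22% and 27.52% with OSM. Complex III, which is mt-Cytb alone, held 5.739% and 5.891%, 8.657% and 8.348%, and 8.73% and 8.75% in the same order. Complex IV held 35.56% and 35.54%, then 29.24% and 29.19%, then 27.18% and 27.54%. Complexes I and III thus took a larger part in both cytokine groups, and complex IV a smaller part, with no overlap between -LIF-ESCs and either group. Complex V held 0.8972% to 1.601% and the rRNAs 1.137% to 1.282%. The tRNAs held 32.01% to 36.2% of the members' TPM but 2.531% to 2.895% of their reads, since dividing by a short length raises their TPM. mt-Co1, the catalytic subunit of complex IV, alone held 61.82% and 61.5% of the members' reads without a cytokine, 49.89% and 50.12% with LIF and 47.68% and 48.48% with OSM. Without mt-Co1, the remaining 36 genes held 0.5747% and 0.5942% of all reads in -LIF-ESCs, below the 0.7102% and 0.6933% of LIF-ESCs and the 0.6904% and 0.6379% of OSM-ESCs.

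Levels of the protein genes fell into a high and a low set. The highest was mt-Co1, at 9287 to 13680 TPM, and mt-Nd1, mt-Nd2, mt-Nd4, mt-Nd5, mt-Nd6 and mt-Cytb lay between 982.6 and 3524 TPM in all 6 libraries. The other 6, mt-Co2, mt-Atp8, mt-Atp6, mt-Co3, mt-Nd3 and mt-Nd4l, lay between 20.07 and 385.3 TPM, so no library placed a gene of the low set within reach of the high set. The low set was made up of the 5 genes with a nuclear copy over their whole length and mt-Atp8. All of mt-Atp8 but its last 43 bases, which lie in mt-Atp6, is in a gap between copies. mt-Co1 and mt-Nd4, with a copy over a part of their length, were in the high set. The whole-length copies held more reads than the genes they match, with 56% to 62.7% of the reads of the pair for mt-Co2, 58.3% to 61.4% for mt-Atp6, 62.8% to 67.7% for mt-Co3, 59.3% to 65.5% for mt-Nd4l and 74.7% to 89.1% for mt-Nd3. For mt-Co1 the copy held 1.01% to 1.55%, and for mt-Nd4 3.35% to 4.24%. How reads that match several places were counted is not given in the sources used here, so the levels of the 6 genes of the low set, and any change in them, are uncertain, while mt-Nd1, mt-Nd2, mt-Nd5, mt-Nd6 and mt-Cytb had no copy at 99% identity.

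**Figure D2:**
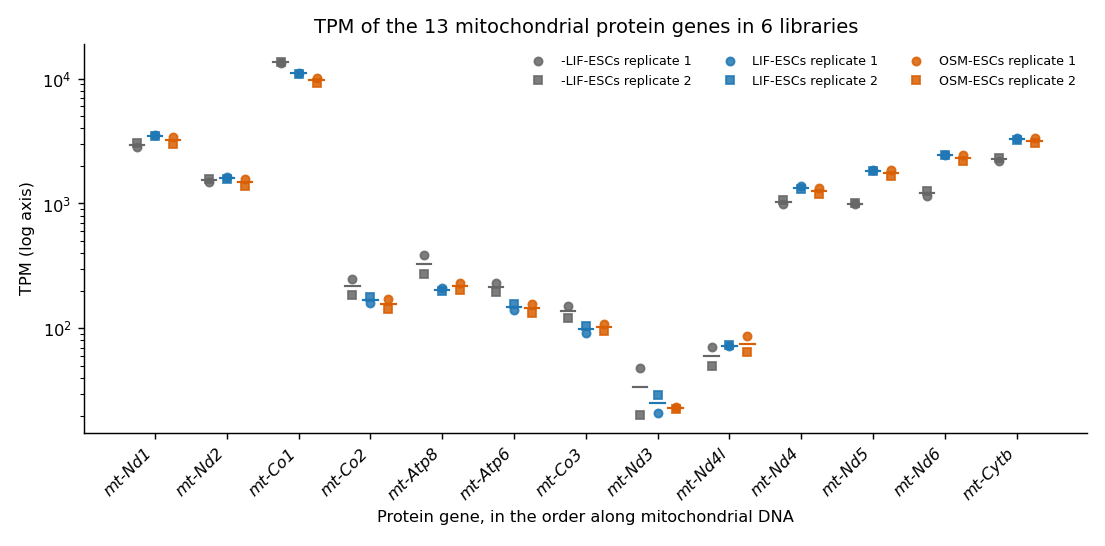
TPM (log axis) of the 13 protein genes in the order along mitochondrial DNA, with a circle and a square for replicates 1 and 2 of each group and a short line at the group mean. In every library 7 genes lie at 982.6 TPM or more and 6 at 385.3 TPM or less, and -LIF-ESCs are lower than the cytokine groups at mt-Nd4, mt-Nd5, mt-Nd6 and mt-Cytb and higher at mt-Co1.

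**Figure D3:**
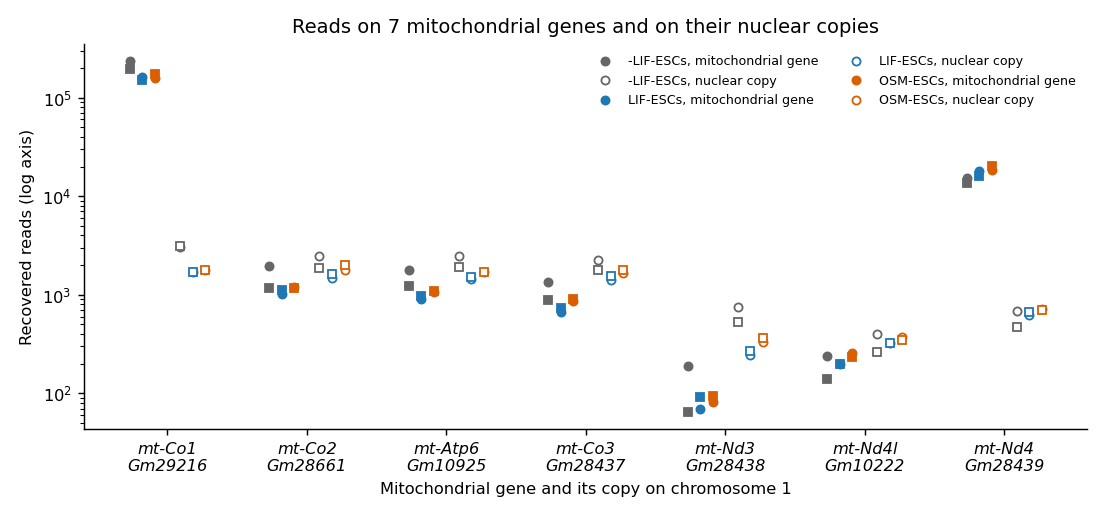
Recovered reads (log axis) on 7 mitochondrial genes (filled) and on their nuclear copies on chromosome 1 (open) in each library, with circles and squares for replicates 1 and 2. The copies of mt-Co2, mt-Atp6, mt-Co3, mt-Nd3 and mt-Nd4l hold more reads than the genes in every library, and those of mt-Co1 and mt-Nd4 hold at most 1.55% and 4.24% of the pair.

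LIF-ESCs against -LIF-ESCs showed unequal change along the mitochondrial DNA. In limma on log2(TPM + 1), with p-values adjusted over 18556 genes, 7 of the 37 were higher and 18 lower at an adjusted p under 0.05, and 12 passed in neither direction. Of all genes tested 42.2% were higher and 25.9% lower, and the median log2 fold change was 0.165 for all genes and -0.42 for the 37. The 5 protein genes that rose, of 13, are a share near that background, whereas the 14 tRNAs that fell, of 22, are a larger share than it. With a log2 fold change of at least 1 required as well, 2 were higher and 7 lower, against 13.3% and 8.09% of all genes. The median-ratio scaling, which sets the median gene to no change, gave 6258 higher and 6308 lower of all genes in place of 7822 and 4809, and 6 and 23 of the members. Fold changes below are on the log2(TPM + 1) scale with their SE, and adjusted p-values are from this limma fit.

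In OSM-ESCs against -LIF-ESCs, which shares its control libraries with the comparison above, 6 of the 37 were higher and 19 lower, against 42.9% and 25.4% of all genes. The median log2 fold change was 0.182 for all genes and -0.46 for the 37. Under the median-ratio scaling all genes split into 6247 and 6291 in place of 7958 and 4722, and the members into 5 and 24. With the added fold threshold 1 was higher and 10 lower, against 14.2% and 7.86%. Both comparisons called mt-Tl1, mt-Nd4, mt-Nd5, mt-Nd6, mt-Te and mt-Cytb higher and 17 members lower, and 0 in opposite directions. mt-Nd1 (higher) and mt-Tg (lower) passed in LIF-ESCs and not in OSM-ESCs, and mt-Rnr1 and mt-Tv (both lower) the other way round, and the test of OSM-ESCs against LIF-ESCs called none of these 4.

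**Figure D4:**
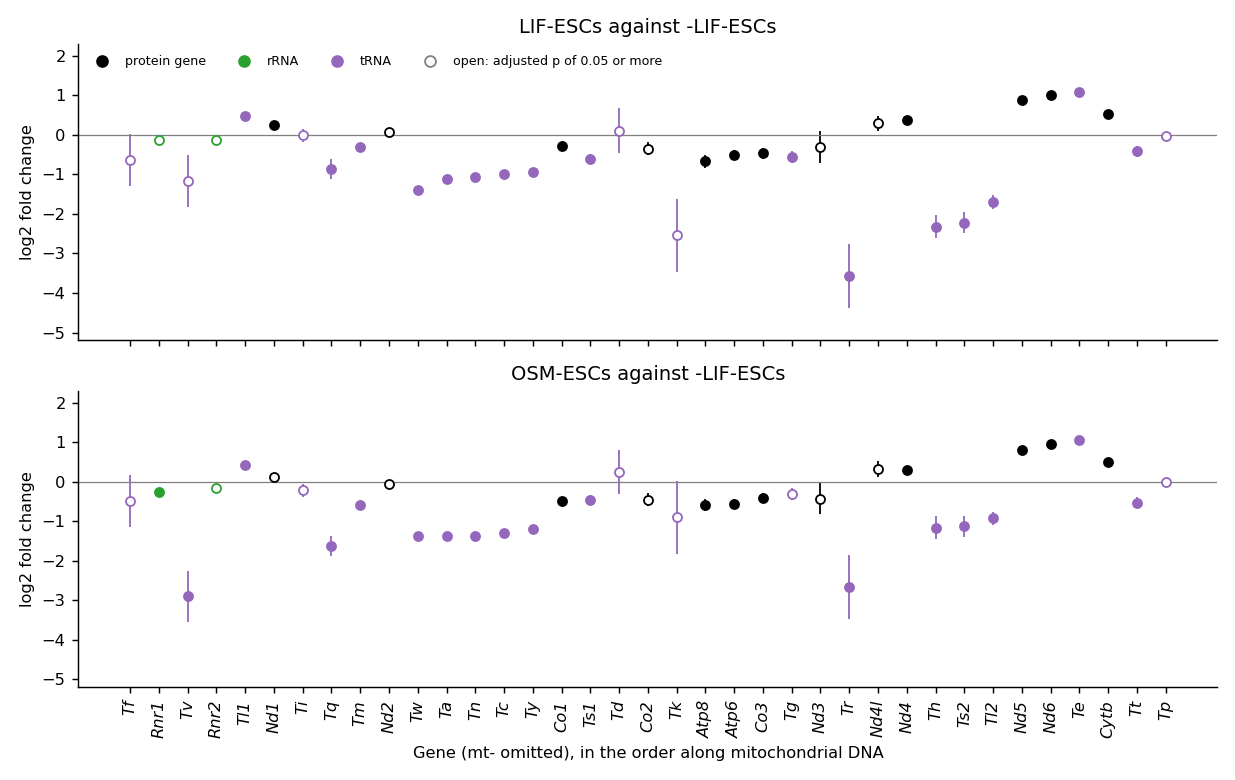
log2 fold change (points) with its SE (bars) from limma on log2(TPM + 1) for all 37 genes in their order along mitochondrial DNA, for LIF-ESCs (top) and OSM-ESCs (bottom) against -LIF-ESCs, with 2 libraries a group. Open points did not pass an adjusted p of 0.05. mt-Nd5, mt-Nd6 and mt-Te stand highest in both panels, at 0.81 to 1.09, and the tRNAs from mt-Tw to mt-Ty and from mt-Th to mt-Tl2 lie below 0.

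Among the complex I subunits, mt-Nd5 and mt-Nd6, which lie next to each other before mt-Cytb, rose most. mt-Nd5 (chrM:11742-13565, plus strand), a membrane subunit with a proton channel, was at 982.6 and 1009 TPM without a cytokine, 1862 and 1809 with LIF and 1845 and 1651 with OSM. Every cytokine library was above every -LIF-ESC library, and mt-Nd5 rose by 0.88 ± 0.06 on the log2 scale for LIF-ESCs (adjusted p = 0.000106) and 0.81 ± 0.06 for OSM-ESCs (adjusted p = 0.000142). mt-Nd6 (chrM:13552-14070, minus strand), the single protein gene of the light-strand precursor, was at 1157 and 1254 TPM, then 2447 and 2438, then 2454 and 2193. It also did not overlap, with log2 fold changes of 1.02 ± 0.07 (adjusted p = 0.000102) and 0.94 ± 0.07 (adjusted p = 0.000131). mt-Nd5 and mt-Nd6 share 14 bases on opposite strands, and the ratio of mt-Nd6 to mt-Nd5 TPM was 1.18 and 1.24 in -LIF-ESCs and between 1.31 and 1.35 in the cytokine groups.

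mt-Nd4 (chrM:10167-11544, plus strand), another proton-channel subunit, was at 987.6 and 1068 TPM without a cytokine, 1378 and 1301 with LIF and 1324 and 1197 with OSM. Its change was smaller, at 0.38 ± 0.07 (adjusted p = 0.00416) and 0.29 ± 0.07 (adjusted p = 0.0113), without overlap. In OSM-ESCs the call was lost under the median-ratio scaling, at 0.09 with an adjusted p of 0.232, and without -LIF-ESCs replicate 1, at 0.24 with an adjusted p of 0.0522, both in limma. mt-Nd5 and mt-Nd4 are neighbours parted by 3 tRNAs, and the ratio of their TPM was 0.995 and 0.944 without a cytokine, 1.35 and 1.39 with LIF and 1.39 and 1.38 with OSM. The neighbours were thus nearly equal without a cytokine and unequal with either.

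mt-Nd1 (chrM:2751-3707, plus strand), which forms part of the ubiquinone site, was at 2856 and 3048 TPM without a cytokine, 3524 and 3455 with LIF and 3440 and 3006 with OSM. It passed in LIF-ESCs at 0.24 ± 0.07 (adjusted p = 0.0288), which became 0.05 under the median-ratio scaling (adjusted p = 0.5) and did not pass without -LIF-ESCs replicate 1 or either LIF-ESC replicate (adjusted p of 0.0821 to 0.12). In OSM-ESCs the libraries overlapped those of -LIF-ESCs, at 0.12 ± 0.07 (adjusted p = 0.178), and the sign turned under that scaling, to -0.08. mt-Nd2 (chrM:3914-4951, plus strand) was at 1478 and 1582, 1643 and 1575, and 1569 and 1384 TPM. Its groups overlapped in both comparisons, with values of 0.07 ± 0.07 and -0.05 ± 0.07 that did not pass and a sign in LIF-ESCs that depended on the scaling. In OSM-ESCs mt-Nd2 was lower under the median-ratio scaling (-0.26, adjusted p = 0.0141) and in voom (-0.19, adjusted p = 4.97e-05).

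The other complex I genes, mt-Nd3 (chrM:9459-9806) and mt-Nd4l (chrM:9877-10173), both on the plus strand and both with a nuclear copy, were low. mt-Nd3 was at 47.97 and 20.07 TPM without a cytokine, 21.14 and 29.31 with LIF and 23.32 and 22.51 with OSM. The 2 -LIF-ESC libraries themselves stood farther apart than any other pair, and neither comparison passed (-0.31 ± 0.40, adjusted p = 0.52, and -0.43 ± 0.40, adjusted p = 0.384). When the TPM of the copy Gm28438 was added to mt-Nd3, a choice made after seeing the data, the sum was lower in both, at -0.99 ± 0.15 (adjusted p = 0.00218) and -0.88 ± 0.15 (adjusted p = 0.00339). mt-Nd4l was at 70.48 and 50.29, 71.78 and 73.9, and 86.32 and 64.12 TPM, with values of 0.29 ± 0.20 and 0.32 ± 0.20 that did not pass.

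For complex III, mt-Cytb (chrM:14145-15288, plus strand), the cytochrome b subunit, was at 2209 and 2318 TPM without a cytokine, 3377 and 3207 with LIF and 3322 and 3027 with OSM. All 4 cytokine libraries were above both -LIF-ESC libraries. It rose by 0.54 ± 0.06 (adjusted p = 0.000639) and 0.49 ± 0.06 (adjusted p = 0.000943).

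For complex IV, mt-Co1 (chrM:5328-6872, plus strand) was at 13290 and 13680 TPM without a cytokine, 11150 and 10930 with LIF and 10060 and 9287 with OSM. The 3 groups did not overlap, and mt-Co1 was lower in LIF-ESCs, at -0.29 ± 0.05 on the log2 scale (adjusted p = 0.00367), and in OSM-ESCs, at -0.48 ± 0.05 (adjusted p = 0.000516). mt-Co2 (chrM:7013-7696), which carries the first electron acceptor of the complex, was at 250.1 and 185.7, 160.4 and 179.1, and 171.8 and 142.7 TPM. Its cytokine libraries were all below those of -LIF-ESCs, yet it did not pass, at -0.35 ± 0.16 (adjusted p = 0.114) and -0.46 ± 0.16 (adjusted p = 0.0519), while it passed in both under the median-ratio scaling, at -0.54 and -0.66. mt-Co3 (chrM:8607-9390), the remaining core subunit, was at 151.5 and 122, 91.91 and 104.4, and 109.3 and 95.8 TPM, and was lower, at -0.47 ± 0.13 (adjusted p = 0.0214) and -0.41 ± 0.13 (adjusted p = 0.0346). The mt-Co3 call was lost without -LIF-ESCs replicate 1 (-0.31 and -0.25), without LIF-ESCs replicate 1 and, for OSM-ESCs, without either OSM-ESC replicate. In limma the OSM-ESC call was also lost with eBayes without trend (adjusted p = 0.0563) and when scaled to the 13 protein genes (adjusted p = 0.0592). Of the 3, mt-Co1 alone had no copy at 99% identity over its whole length.

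The TPM ratio of mt-Nd5 to mt-Co1, which does not depend on the scaling of a library, was 0.0739 and 0.0737 without a cytokine, 0.167 and 0.166 with LIF and 0.183 and 0.178 with OSM. The ratio of mt-Cytb to mt-Co1 was 0.166 and 0.169, 0.303 and 0.293, and 0.33 and 0.326. Replicates of a group were close and no group overlapped another in either ratio, so the genes of mitochondrial DNA did not change in step. Scaling each library to an equal sum of the 13 protein genes gave mt-Nd5 values of 0.81 and 0.86 and mt-Co1 values of -0.36 and -0.43, for LIF-ESCs and OSM-ESCs, all still past the threshold in limma. In -LIF-ESCs mt-Co1 held on average 1.348% of TPM, of 2.445% for the 13 protein genes. Under this scaling a fall in mt-Co1 therefore raises the other genes, so the scaling is no separate test of unequal change.

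For complex V, mt-Atp8, a small subunit of the membrane part of ATP synthase, was at 385.3 and 273.4 TPM without a cytokine, 208.5 and 198.3 with LIF and 229 and 203.7 with OSM. mt-Atp6, the subunit through which protons pass, was at 231 and 195.4, 141.5 and 156.8, and 156.1 and 132.6 TPM. Both were lower in every cytokine library, with mt-Atp8 at -0.67 ± 0.16 (adjusted p = 0.0143) and -0.59 ± 0.16 (adjusted p = 0.0231) and mt-Atp6 at -0.51 ± 0.12 (adjusted p = 0.0111) and -0.56 ± 0.12 (adjusted p = 0.00779). The 2 genes overlap and lie in the stretch with nuclear copies, so they cannot be taken as independent and their levels are uncertain. The call of mt-Atp8 was lost without LIF-ESCs replicate 2 (adjusted p = 0.0642) and without OSM-ESCs replicate 1 or 2 (adjusted p of 0.0546 and 0.109), and that of mt-Atp6 without LIF-ESCs replicate 1 (adjusted p = 0.0588). The copy Gm10925 added to mt-Atp6 left the sum at -0.45 (adjusted p = 0.0131) and -0.51 (adjusted p = 0.008).

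Of both rRNAs, mt-Rnr1 alone passed, in OSM-ESCs. mt-Rnr1 (chrM:70-1024), the RNA of the small ribosomal subunit, was at 209.7 and 232.6 TPM without a cytokine, 203.8 and 202.9 with LIF and 196.2 and 172.7 with OSM. It did not pass in LIF-ESCs, at -0.12 ± 0.08 (adjusted p = 0.226), and was lower in OSM-ESCs, at -0.26 ± 0.08 (adjusted p = 0.0283). That call was lost without -LIF-ESCs replicate 2 (-0.19), OSM-ESCs replicate 2 (-0.17) or either LIF-ESC replicate (-0.26). In limma it was also lost with the replicate block (adjusted p = 0.0518), eBayes without trend (0.0553) and only the groups compared (0.0512). mt-Rnr2 (chrM:1094-2675), the RNA of the large subunit, was at 255.2 and 271.7, 239.7 and 246.4, and 251.7 and 224.1 TPM and passed in neither (-0.12 ± 0.07 and -0.15 ± 0.07). Every cytokine library was below both -LIF-ESC libraries for each rRNA. Under the median-ratio scaling all 4 values passed as lower, from -0.31 to -0.46.

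Of the 22 tRNAs, 2 were higher and 14 lower in each comparison, with medians of -0.90 for LIF-ESCs and -0.91 for OSM-ESCs. Those counts are 9.09% and 63.6% of the tRNAs, against 42.2% and 25.9% of all genes for LIF-ESCs and 42.9% and 25.4% for OSM-ESCs. By annotated strand, 8 of the 14 heavy-strand tRNAs (57.1%) and 6 of the 8 light-strand tRNAs (75%) were lower in each. The libraries did not mark strands, so this split is of genes and not of RNA made from either strand. Of the tRNAs at gaps between nuclear copies, mt-Ts1 and mt-Tr were called lower in each and mt-Tg in LIF-ESCs, and these calls are uncertain. The 2 that rose were the tRNAs with the highest mean TPM. mt-Te was at 2080 and 2386 TPM without a cytokine, 4730 and 4767 with LIF and 4840 and 4480 with OSM, with 1.09 ± 0.07 (adjusted p = 0.000121) and 1.06 ± 0.07 (adjusted p = 0.000131). It did not overlap, and the TPM ratio of mt-Te to its neighbour mt-Nd6 was between 1.8 and 2.04 in all libraries. Reads on both cannot be told apart from plus-strand RNA between mt-Nd5 and mt-Cytb, which also rose. The ratio therefore does not show that 2 light-strand RNAs moved together. mt-Tl1 (chrM:2676-2750), a leucine tRNA between mt-Rnr2 and mt-Nd1, was at 2022 and 1929, 2834 and 2641, and 2884 and 2457 TPM, with 0.47 ± 0.08 (adjusted p = 0.00452) and 0.43 ± 0.08 (adjusted p = 0.00633). The next by mean level, mt-Ts1 (chrM:6870-6938), a serine tRNA that overlaps the end of mt-Co1 by 3 bases on the opposite strand, fell: it was at 1263 and 984.3, 730.7 and 742.3, and 824.9 and 799.4 TPM, with -0.60 ± 0.11 (adjusted p = 0.00578) and -0.46 ± 0.11 (adjusted p = 0.0156), the latter lost without OSM-ESCs replicate 1 or 2.

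The 5 tRNAs between mt-Nd2 and mt-Co1, named after their values were seen, fell together. mt-Tw was at 531.3 and 561.4 TPM without a cytokine, 198.9 and 213.4 with LIF and 202.4 and 215.3 with OSM (-1.40 ± 0.05 and -1.38 ± 0.05). mt-Tn was at 1317 and 1421, 648.6 and 651.1, and 515.8 and 541.1 TPM (-1.07 ± 0.05 and -1.37 ± 0.05). No cytokine library reached a -LIF-ESC library for any of the 5. mt-Ta, mt-Tc and mt-Ty stood at -1.11, -0.99 and -0.94 in LIF-ESCs, then -1.38, -1.30 and -1.19 in OSM-ESCs, and the highest adjusted p of the 5 was 5.91e-05 in limma. The 4 light-strand tRNAs of this set had nearly the same number of reads in each library, from 907 to 1059 in -LIF-ESCs replicate 1 to 336 to 377 in OSM-ESCs replicate 1. A fragment can cover several of them, and the study's methods do not state how such reads were counted. Their values cannot be taken as independent. mt-Nd2, just before this set, and mt-Co1, just after it, changed by 0.07 and -0.29 in LIF-ESCs.

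The 3 tRNAs between mt-Nd4 and mt-Nd5 fell while both flanking genes rose. mt-Th was at 533.9 and 431.5 TPM without a cytokine, 71.59 and 127.4 with LIF and 242.3 and 185.8 with OSM. mt-Ts2 was at 607.8 and 519.1, 93.95 and 152.2, and 293.6 and 222.2 TPM. mt-Tl2, named as their neighbour after its values were seen, was at 558.6 and 508.6, 136.6 and 195.2, and 294.2 and 264.8 TPM. In each of them the groups did not overlap, with LIF-ESCs lowest and OSM-ESCs between. The log2 fold changes in LIF-ESCs were -2.32 ± 0.29 for mt-Th (adjusted p = 0.00119), -2.22 ± 0.26 for mt-Ts2 (adjusted p = 0.00081) and -1.70 ± 0.17 for mt-Tl2 (adjusted p = 0.000491). In OSM-ESCs they were -1.17 ± 0.29 (adjusted p = 0.0158), -1.13 ± 0.26 (adjusted p = 0.0107) and -0.93 ± 0.17 (adjusted p = 0.00488). Without OSM-ESCs replicate 2, mt-Th and mt-Ts2 no longer passed in OSM-ESCs (adjusted p of 0.0834 and 0.0595), nor did mt-Th without -LIF-ESCs replicate 1 (0.0681). They rested on 405, 406 and 449 reads in -LIF-ESCs replicate 1 and on 45, 52 and 91 in LIF-ESCs replicate 1, again near-equal counts on adjoining genes. Against mt-Nd5, the TPM of mt-Tl2 was 0.568 and 0.504 without a cytokine, 0.0734 and 0.108 with LIF and 0.159 and 0.16 with OSM.

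The largest fitted changes were at tRNAs with very few reads. mt-Tr (arginine) had 26 and 10 reads without a cytokine, 2 and 0 with LIF and 1 and 4 with OSM, for fitted values of -3.57 ± 0.81 (adjusted p = 0.0108) and -2.67 ± 0.81 (adjusted p = 0.03). mt-Tv (valine) had 9 and 9, 2 and 5, and 0 and 2 reads, and passed in OSM-ESCs at -2.90 ± 0.65 (adjusted p = 0.0107). A pseudocount of 0.1 gave mt-Tr in OSM-ESCs an adjusted p of 0.158, and leaving out -LIF-ESCs or OSM-ESCs replicate 1 gave 0.12 and 0.141. mt-Tq (glutamine) had 29 and 36, 19 and 13, and 9 and 13 reads and passed in both, at -0.86 ± 0.25 (adjusted p = 0.0255) and -1.62 ± 0.25 (adjusted p = 0.00233), the former lost without -LIF-ESCs or LIF-ESCs replicate 2. mt-Tf, mt-Ti, mt-Td, mt-Tk and mt-Tp passed in neither comparison. mt-Tk in LIF-ESCs (-2.54, adjusted p = 0.0541) passed in 7 of 17 alternative fits, and mt-Tp passed as lower under the median-ratio scaling in both comparisons (adjusted p of 0.0183 and 0.0203).

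OSM-ESCs against LIF-ESCs gave 0 members higher and 0 lower in limma, where 0.463% and 0.129% of all genes passed. At an unadjusted p under 0.05, 3 members were higher and 8 lower, against 9.80% and 5.50% of all genes, and limma voom on recovered reads called 3 higher and 4 lower, where it called 5.27% and 2.58% of all genes. With a filter of 5 TPM 0 were higher and 1 (mt-Tc) lower, where 1.12% and 0.285% of all genes passed. The 3 higher were mt-Th, mt-Ts2 and mt-Tl2, at 1.14 ± 0.29 (adjusted p = 0.183), 1.09 ± 0.26 (adjusted p = 0.161) and 0.77 ± 0.17 (adjusted p = 0.145), and in voom their adjusted p-values were 0.00476, 0.00348 and 0.00541. Their OSM-ESC libraries were all above the LIF-ESC libraries. mt-Co1 was lower in both OSM-ESC libraries, at -0.19 ± 0.05 (adjusted p = 0.181 in limma), with a 95% interval of -0.32 to -0.07, and passed in voom (adjusted p = 1.88e-08). mt-Tc was at -0.31 ± 0.05 (adjusted p = 0.0677) and mt-Tn at -0.30 ± 0.05 (adjusted p = 0.077). For the genes that rose most against -LIF-ESCs, the 95% interval of the difference between OSM-ESCs and LIF-ESCs was -0.22 to 0.07 for mt-Nd5, -0.24 to 0.09 for mt-Nd6 and -0.20 to 0.09 for mt-Cytb. A p that misses the threshold does not show that the groups are alike.

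The nuclear genes that serve mitochondrial DNA were counted in the same fits. All lists below stand against 42.2% of all genes higher and 25.9% lower in LIF-ESCs, then 42.9% and 25.4% in OSM-ESCs. Under the median-ratio scaling, of 18578 genes 6258 were higher and 6308 lower, then 6247 and 6291. Of 21 genes of mitochondrial transcription and the nucleoid, 12 were higher and 6 lower in each comparison (57.1% and 28.6%), with medians of 0.31 in LIF-ESCs and 0.27 in OSM-ESCs. Polrmt, the polymerase itself, was at 12.8 and 13.8 TPM without a cytokine, 22.9 and 21.6 with LIF and 20 and 19.5 with OSM (0.70 ± 0.06, adjusted p = 0.000276, and 0.54 ± 0.06, adjusted p = 0.000748). Tfam, which packages mitochondrial DNA and starts transcription, rose less, at 0.31 ± 0.06 (adjusted p = 0.00544) and 0.27 ± 0.06 (adjusted p = 0.00958), and did not pass under the median-ratio scaling (0.13 and 0.07). Under that scaling the list split into 8 higher and 9 lower in LIF-ESCs, then 9 and 8 in OSM-ESCs. Tfb2m, the partner of the polymerase, was at 0.33 and 0.40, and Polg2, an accessory subunit of the DNA polymerase, fell, at -1.05 and -1.25. Polrmt and mt-Co1 moved in opposite directions, and Polrmt and mt-Nd5 in the same one.

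Of 33 genes of mitochondrial RNA processing, stability and decay, 18 were higher and 6 lower in LIF-ESCs, then 20 and 5 in OSM-ESCs, against 14 and 9, then 13 and 10, under the median-ratio scaling. Lrpprc, which stabilises mitochondrial messenger RNAs in a complex with Slirp, rose by 0.97 ± 0.05 (adjusted p = 4.59e-05) and 0.86 ± 0.05 (adjusted p = 6.54e-05). Slirp did not pass, at -0.08 (adjusted p = 0.106) and -0.03 (adjusted p = 0.456), but was lower under the median-ratio scaling, at -0.27 (adjusted p = 0.00161) and -0.23 (adjusted p = 0.00269). Trub2, a pseudouridine synthase, stood at 1.56 and 1.53, and Ptcd3, a ribosome-associated RNA-binding protein, at 1.34 and 1.22. Of 13 tested regulators of mitochondrial biogenesis, 9 and 10 were higher and 0 lower, and 7 and 7 were higher under the median-ratio scaling. The largest rises were those of Myc (1.59 and 1.87) and Esrrb (1.43 and 1.19). Esrrb is also one of the ESC markers, and Tfam and Tfb2m also count in the transcription list, so this count is not a separate result. Stat3, the common target of both cytokines, stood at 0.97 ± 0.06 (adjusted p = 6.6e-05) and 1.02 ± 0.06 (adjusted p = 5.36e-05). Of 23 mitochondrial aminoacyl-tRNA synthetases, which charge the tRNAs, 11 were higher and 3 lower in LIF-ESCs, then 10 and 3 in OSM-ESCs, and of 78 mitochondrial ribosomal proteins 25 and 28, then 26 and 27. The median-ratio scaling gave 9 and 4, then 7 and 5, of the synthetases and 14 and 40, then 17 and 39, of the ribosomal proteins.

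The nuclear subunits of the respiratory complexes are given beside the mitochondrial ones. Of 36 nuclear complex I subunits, 7 were higher and 10 lower in LIF-ESCs, then 8 and 9 in OSM-ESCs, with medians of -0.06 and 0.00, and 4 and 3 of the 7 mitochondrial ones were higher and 0 lower. Those 4 and 3 are 57.1% and 42.9% of the 7, against 42.2% and 42.9% of all genes. Under the median-ratio scaling the nuclear ones split into 3 higher and 22 lower, then 4 and 21, and the mitochondrial ones into 3 and 0, then 2 and 1. Of 9 nuclear complex III subunits, 1 was higher and 4 lower in each, where mt-Cytb rose. Of 13 nuclear complex IV subunits, 1 was higher and 9 lower in LIF-ESCs, then 3 and 8 in OSM-ESCs, with medians of -0.27 and -0.28, beside mt-Co1 at -0.29 and -0.48. Of the 4 complex II subunits, all nuclear, 1 was higher and 3 lower, then 1 and 2. Of 17 nuclear complex V subunits, 7 were higher and 6 lower, then 7 and 5, but 2 higher and 11 lower in both under the median-ratio scaling. That scaling also left 0 higher in complexes III and IV, with 6 and 7 of 9 and 10 and 10 of 13 lower. The largest changes in these lists were those of Ndufs5 of complex I (2.16 and 2.23) and of Cox4i2, an isoform of complex IV (-2.48 and -2.75). In OSM-ESCs against LIF-ESCs none of these 10 lists had a gene past the threshold in limma. Of all genes only 0.463% were higher and 0.129% lower there, so few calls could fall in lists of this size.

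**Figure D5:**
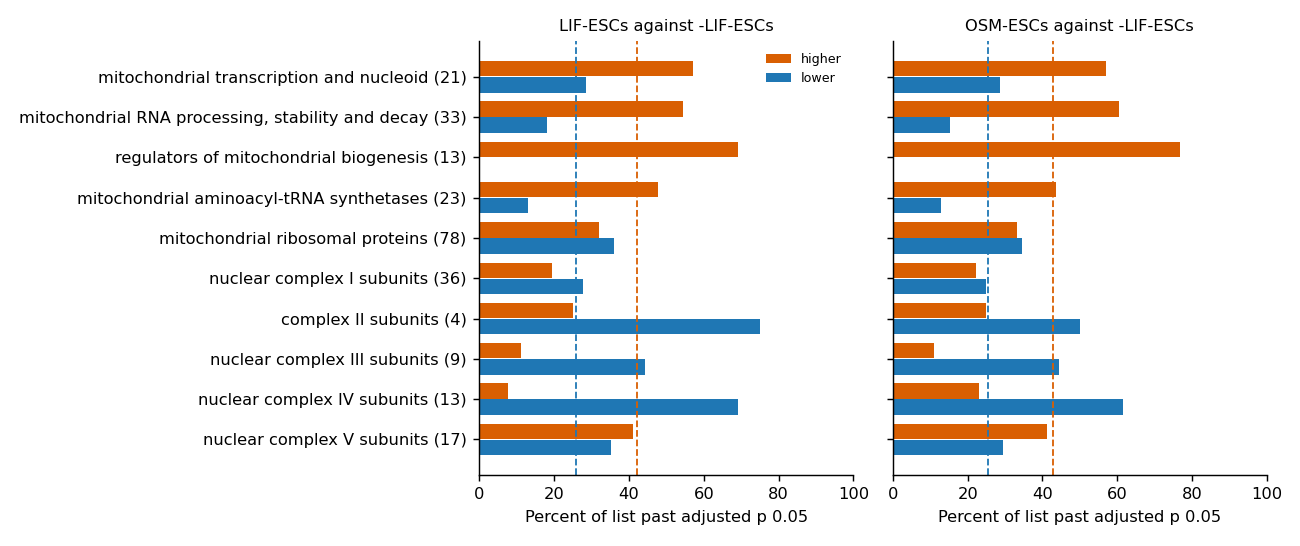
Percent of each list of nuclear genes, with the number tested in brackets, that was higher (orange) or lower (blue) at an adjusted p under 0.05 in limma, for LIF-ESCs (left) and OSM-ESCs (right) against -LIF-ESCs. Dashed lines mark the same shares over all 18556 genes tested, 42.2% and 25.9% (left) and 42.9% and 25.4% (right). Nuclear complex III and IV subunits have fewer higher and more lower genes than these lines in both panels.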

How the data were processed

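RNA of mESCs at P10 was read in 6 libraries. The authors trimmed reads with Trimmomatic, mapped them with HISAT2 to mm10, counted them with featureCounts and deposited TPM per gene symbol; versions, strand setting and the treatment of reads matching several places are not given in the sources used here. TPM were joined to GENCODE M21 exon lengths for 28405 of 28584 symbols (99.4%), and reads were recovered as TPM times length over the value of 1 read, which gave whole numbers within 0.02 reads for 95.3% of 170430 values. Reads are not independent molecules, so intervals cover counting error only.

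log2(TPM + 1) was fitted for the 18556 genes that reached 1 TPM in 2 or more libraries, with limma 3.58.1 (eBayes with trend, 6 libraries, no covariate) in R 4.3.3, with Benjamini-Hochberg adjustment over all genes tested, and the procedure was tested on simulated data. The study's methods tested counts, and TPM need a test on the log scale. The 17 alternative fits changed the pseudocount, filter, variance model, samples, block, scaling, unit or libraries, and 1 of them, which adds nuclear copies, was chosen after seeing the data. Copies were found with BLAST 2.17.0 among GENCODE M21 transcripts. The members and gene lists were chosen with earlier results of these data known. Named were all protein genes and rRNAs, the 3 tRNAs highest by mean TPM, up to 3 tRNAs with the largest change per comparison, and, from each nuclear list, up to 2 genes with the largest change in each direction past the threshold, with Tfam, Polrmt, Tfb2m, Lrpprc, Slirp and Stat3 always; other tRNAs were named after their values were seen. Summaries were computed in Python 3.11.15 (numpy 2.4.6, pandas 2.3.3, scipy 1.17.1) and drawn with matplotlib 3.10.9.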

Additional observations from a re-analysis of the deposited data

How the results depend on the processing

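Against -LIF-ESCs, the same 6 members (LIF-ESCs) and 5 members (OSM-ESCs) were higher, and 11 and 10 lower, in all 18 fits. How many of all genes held in every fit was not computed. Among the 11, mt-Ts1 and mt-Tr lie at gaps between nuclear copies and are uncertain. A log2 fold change of at least 1 as well left 2 higher and 7 lower for LIF-ESCs (13.3% and 8.09% of all genes). For OSM-ESCs it left 1 and 10 (14.2% and 7.86%). Leaving out 1 library gave 12 to 19 lower members for OSM-ESCs against -LIF-ESCs, with 12 without OSM-ESCs replicate 2. For OSM-ESCs against LIF-ESCs, voom on recovered reads called 3 higher and 4 lower (5.27% and 2.58% of all genes) and a filter of 5 TPM 1 lower (0.285%), against 0 and 0 (0.463% and 0.129%). Fewer protein genes were lower without LIF-ESCs replicate 1 (LIF-ESCs) and without OSM-ESCs replicate 1 or 2 (OSM-ESCs), as were fewer of all genes. Against -LIF-ESCs, signs turned for values of 3 protein genes that did not pass: mt-Nd2 in LIF-ESCs to -0.12 (median ratio), 0.00 (scaled to the 13 protein genes) and -0.06 (voom), mt-Nd1 in OSM-ESCs to -0.08 (median ratio) and -0.01 (voom), and, leaving out 1 library, mt-Nd3 from -0.92 to 0.30 in LIF-ESCs and -1.03 to 0.18 in OSM-ESCs (positive without -LIF-ESCs replicate 1) and mt-Nd2 from -0.14 to 0.04 in OSM-ESCs. Signs of mt-Tf, mt-Ti, mt-Td, mt-Tk and mt-Tp also turned in some fits, as did those of mt-Nd5 (-0.07, up to 0.06), mt-Nd6 (-0.07, up to 0.05) and mt-Cytb (-0.05, up to 0.08) in OSM-ESCs against LIF-ESCs. The cause of these turns was not tested.

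The share was 1.52%, 1.40% and 1.28% of recovered reads in -LIF-ESCs, LIF-ESCs and OSM-ESCs, 2.49%, 2.62% and 2.40% of TPM without tRNAs, and 2.44%, 2.58% and 2.36% for the protein genes. It was 3.83% in LIF-ESCs without rRNAs, 4.08%, 4.01% and 3.76% with nuclear copies added, and 3.97%, 3.94% and 3.68% without Gm23935, which held 0.5865% of TPM in OSM-ESCs replicate 1 and 1.792% to 1.933% elsewhere; the last change was chosen after seeing the data.

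Groups share replicate numbers only: the deviations of same-numbered libraries correlated at -0.0433, -0.0234 and 0.0265 across genes. The replicate block gave 7 higher and 19 lower, 6 and 20, and 0 and 0 members in the 3 comparisons. Of all 18556 genes it gave 7612 and 4612, 7738 and 4551, and 0 and 0. Depth limits mt-Tr, mt-Tv, mt-Tf and mt-Tk, each with at most 26 reads in every library.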
